A study of Homo sapiens with 3 samples.

Results

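LENG8 is a protein coding gene of human chromosome 19, and its transcript was chosen by its number of reproducible RBM17 peaks in an eCLIP experiment, 9 of the 866 in all. Its members were the 30 replicate 2 peak clusters that carried the Ensembl identifier of LENG8 (of 119066 clusters), the 28 replicate 1 clusters on the same strand that lay within their span (of 137095) and the 9 reproducible peaks there. LENG8 was 1 of 10872 gene entries named by a replicate 2 cluster. Because the count of peaks chose the gene, its counts of peaks and its enrichment over input are given below as a description, with no test.

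eCLIP crosslinks a protein to the RNA it touches with UV light, pulls the protein down with an antibody and sequences the attached RNA fragments. The series held 3 libraries from K562, an established line of chronic myelogenous leukemia cells that was neither edited nor treated here. The pair numbered here as replicates 1 and 2 was pulled down with antibodies to RBM17, and the other was 1 size-matched input, cut from the same range of the gel without a pull-down. All values therefore come from 1 cell line, with no second cell type and no condition to compare, and the replicates, which the study calls biological, are not tied to separate cultures in the labels. In the replicate 2 clusters, 9 of 9 erythroid and leukemia transcripts used as K562 markers had a cluster, with 8 to 1553 reads each, and 0 of 4 lymphoid markers had one. The share of all annotated genes with a cluster is not given here, so these counts are no test of cell identity. Replicate 2 held 1336569 reads in clusters. The read depths of replicate 1 and of the input are not known from the files used here.

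RBM17, also called SPF45, is a splicing factor that takes part in the choice of 3′ splice sites. Its UHM domain binds short peptide motifs in the U2 snRNP protein SF3B1 and in other splicing factors. The LENG8 protein carries a SAC3 domain, the fold that it shares with MCM3AP, the scaffold of the TREX-2 complex that couples transcription to mRNA export. The gene is named for the leukocyte receptor cluster in which it lies.

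In the GENCODE 44 annotation of hg38, LENG8 (ENSG00000167615.18) ran from 54449190 to 54462016 on the plus strand of chromosome 19, over 12827 bp, with 8 transcripts, 7 of them protein coding. The canonical transcript, LENG8-201, had 16 exons and 800 codons. Its last intron, intron 15, spanned 54458522 to 54460765 and was its longest, with 2244 bp, or 17.5% of the gene. LENG8-202 and LENG8-208 kept this intron whole as part of their last exon. In both, translation ran 382 bp into the intron before a stop codon at 54458904 to 54458906, which gave coding sequences of 837 and 874 codons. The remaining 1859 bp of the intron were annotated as 3′-UTR in these 2 transcripts, although the canonical coding sequence went on downstream of them, in the last exon at 54460766 to 54462016, for another 160 bp. An interval of LENG8 can therefore carry a 3′-UTR label while a coding interval lies 3′ of it. LENG8-203 gave the same order without intron 15. Its coding sequence at 54461226 to 54461451 lay 3′ of the LENG8-201 stop codon at 54460926 to 54460928, inside the 3′-UTR of LENG8-201.

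**Figure D1:**
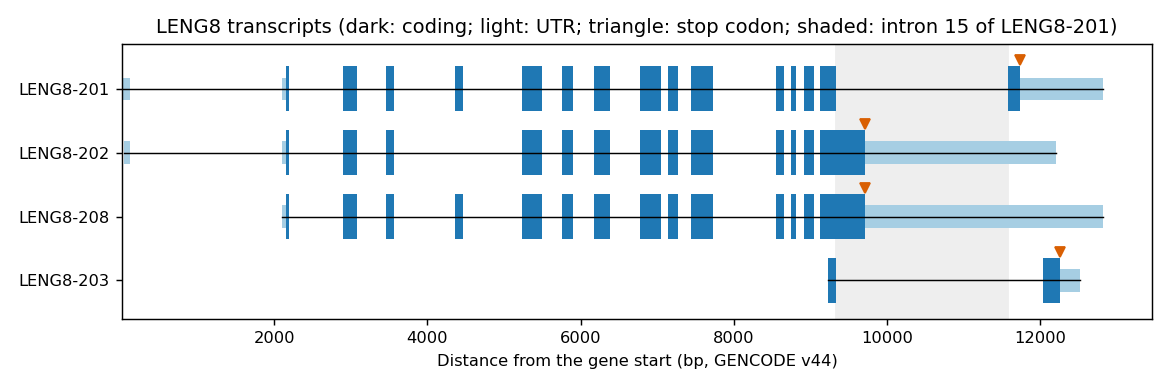
Exons of 4 LENG8 transcripts against distance from the gene start in bp, from GENCODE 44 on hg38, with coding parts as dark boxes, UTRs as light boxes, stop codons as triangles and intron 15 of LENG8-201 shaded. LENG8-202 and LENG8-208 carry their stop codon 382 bp into the shaded intron, and LENG8-201 joins its last exon downstream of it.

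The sequences that set apart the spliced and the intron-keeping forms were read from hg38, on the plus strand, 5′ to 3′. The capitals mark the first 2 bases of intron 15 in the 5′ splice site, its last 2 bases in the 3′ splice site and the stop codon that is used where the intron is kept.
5′ splice site, chr19:54458512-54458541: tgatcaaaacGTatgtggtgccaagctccc
3′ splice site, chr19:54460746-54460775: ttctcctcttgtctccatAGcttccgccct
stop codon of LENG8-202 and LENG8-208, chr19:54458877-54458906: tctcagcttgtcgctgtgctcccaccaTAG
In intron 15, G made up 31.1% of the bases. Of the other 14 introns of LENG8-201, with 21.0% to 42.4% G, 6 had a higher share, so that intron 15 did not stand out within its own gene. It held 17 separate runs of at least 4 G (GGGG, on the transcribed strand). Among 508 canonical introns of chromosome 19 within 10% of its length, the median was 26.0% G and 9 such runs, 86.6% had a lower share of G and 79.3% had fewer runs. GGGG itself occurred in 99.4% of those introns, so its presence alone was no mark of LENG8. The eCLIP intervals below are on hg19, as the deposited files give them, and no coordinate was carried from one build to the other, so no peak was placed on intron 15 by position. The sequences of the peaks are not given for the same reason.

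The 30 replicate 2 clusters of LENG8 spanned 54967156 to 54972529 on the plus strand of chromosome 19 (hg19), 5374 bp, and covered 25.3% of it. No cluster of either replicate lay on the opposite strand in this span, and no replicate 2 cluster named for another gene overlapped it. The clusters held 2596 reads, 0.194% of all replicate 2 cluster reads, which put LENG8 at rank 22 of 10872 gene entries. The median gene entry had 33 reads. By the number of clusters LENG8 stood at rank 772, with 30 clusters against a median of 6. The clusters held 33 to 241 reads each, with a median of 69.5, against a median of 5 over all replicate 2 clusters, and were 7 to 133 bp long. The p-value given by the peak caller, which compares a cluster with the reads around it and not with the input, lay between 4.7e-201 and 1.71e-14. All 30 (100%, 95% exact Clopper-Pearson interval 88.4 to 100) were at or below 1e-10, against 8.07% of all replicate 2 clusters. This and the other intervals cover counting error only. Replicate 2 carried no fold over input, so its reads alone do not separate binding from the amount of LENG8 RNA.

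The reads were uneven along the transcript. Counted from the start of the first cluster in windows of 1 kb by cluster start, they numbered 78, 65 and 108 in the first 3 windows, and 607, 1062 and 676 in the last 3. The fifth window alone held 40.9% of the reads and the last 3 together held most of them, so that the signal lay toward the 3′ end of the span. The last window was shorter, from 5000 to 5374 bp, yet held 26.0% of the reads, so these counts are not densities. Replicate 1, which was measured against the input, leaned the same way in where its clusters lay. Only 4 of its 28 clusters started in the first 2 kb, and these were 2 to 11 bp long.

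**Figure D2:**
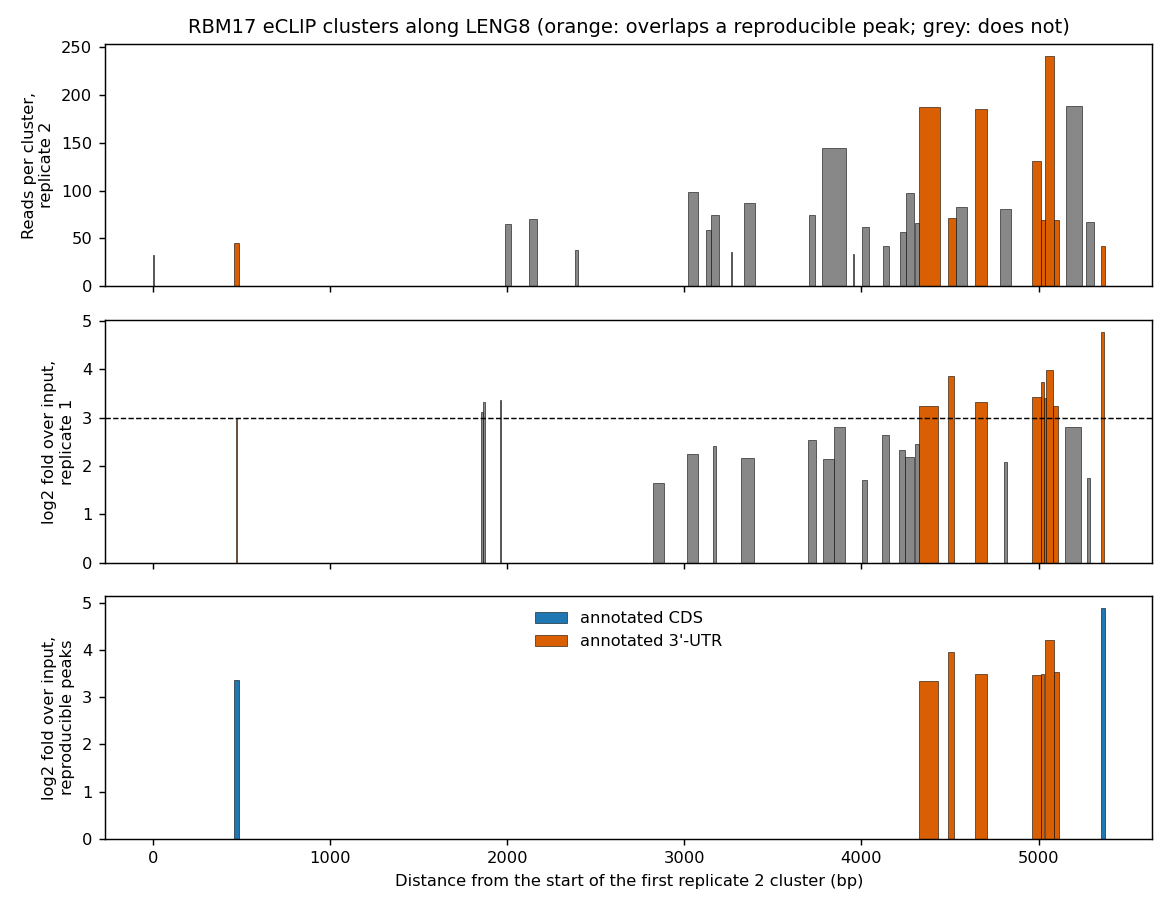
RBM17 eCLIP clusters along LENG8, plotted by distance in bp from the start of the first replicate 2 cluster, with reads per replicate 2 cluster (top), log2 fold over input per replicate 1 cluster (middle; dashed line, 3) and log2 fold over input per reproducible peak (bottom). In the upper panels orange clusters overlap a reproducible peak and grey ones do not, and in the bottom panel colours give the annotated region. Most clusters of both replicates and 8 of the 9 peaks lie toward the 3′ end, where clusters reach 241 reads and log2 folds of 4.77.

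In replicate 1, the log2 fold over input of the 28 clusters ran from 1.65 to 4.77 with a median of 2.81, against a median of 1.51 over all replicate 1 clusters. The −log10 p over input ran from 5.08 to 49.0 with a median of 13.6, against 0.495 over all. This p compares the reads of 1 pull-down library with those of 1 input library, not replicates. All 28 clusters of LENG8 had a fold above 0, as did 88.6% of all replicate 1 clusters. Past a log2 fold of 3, the fold that the list of reproducible peaks also uses, and a −log10 p of 3 lay 12 of the 28 (42.9%, interval 24.5 to 62.8), against 5.35% of all replicate 1 clusters. The choice of LENG8 used this contrast, so nothing is read from the difference.

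Of these 12 clusters, 9 overlapped a reproducible peak and 3 did not. The 3 were the small clusters at 54969009 to 54969019, at 54969023 to 54969025 and at 54969114 to 54969115, with log2 folds of 3.12, 3.32 and 3.36, and none of them touched a replicate 2 cluster. Just under the threshold lay 1 cluster that did overlap a peak, at 54967624 to 54967630, with a log2 fold of 2.997. Among the clusters that overlapped a replicate 2 cluster but no peak, the highest log2 fold was 2.81, at 54971003 to 54971065. A further cluster, at 54967148 to 54967170, began just before the span, overlapped the first replicate 2 cluster and had a log2 fold of 2.87. The clusters at either side of the threshold thus differed by little, and all 28 passed the −log10 p.

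The replicates were then set against each other. At 1 bp or more on the same strand, 24 of the 28 replicate 1 clusters overlapped a replicate 2 cluster (85.7%, interval 67.3 to 96.0), against 26.3% of all replicate 1 clusters. In the other direction, 23 of the 30 replicate 2 clusters overlapped a replicate 1 cluster (76.7%, interval 57.7 to 90.1), against 31.9% of all replicate 2 clusters. Not 1 pair had the same start and end, so the replicates shared stretches and not boundaries. The list of reproducible peaks requires both replicates, so the overlap is in part what chose LENG8. The 4 replicate 1 clusters without a partner started at 54969009, 54969023, 54969114 and 54969981. The 7 replicate 2 clusters without a partner had 34 to 83 reads, and only 1 of them, at 54971690 to 54971753, lay in the stretch that held most of the peaks.

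By bases, replicate 1 clusters covered 1095 bp of LENG8 and replicate 2 clusters 1361 bp, and 968 bp lay in both. That was 88.4% of the replicate 1 bases and 71.1% of the replicate 2 bases, or 65.1% of the bases covered by either. Among the 38 gene entries with at least 5 reproducible peaks this was the highest share, with a median of 35.2% and a low of 17.1%. HNRNPH1 followed with 55.7%, OGT with 55.5% and SRRM2 with 54.7%. This rank is a description over genes picked by their peaks, which need both replicates. Of these entries only HNRNPH1, OGT and HNRNPA2B1 were deeper than LENG8, which had 2596 replicate 2 reads, and the rest were shallower. Whether the share follows depth was not tested. HNRNPH1 had 2938, OGT 6111 and HNRNPA2B1, with 46.1% of its bases shared, 4355, while SRRM2 had 1686.

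Over the 24 replicate 1 clusters with a replicate 2 partner, the −log10 p of replicate 1 and the reads of replicate 2 rose together across clusters (Spearman's rho 0.66, Pearson's r 0.65 with the log10 of the reads). The log2 fold of replicate 1 was only weakly related to those reads (rho 0.20, r 0.17). These are descriptions across neighbouring intervals of 1 transcript, which share their libraries and whose −log10 p and reads both depend on depth.

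The 9 reproducible peaks of LENG8 each carried 1 region label, taken from the study's annotation of its peaks. The first was coding. Peak 1 (54967613 to 54967642) had 45 reads in its replicate 2 cluster, a log2 fold of 2.997 in replicate 1 and a log2 fold of 3.37 for both replicates together, with a −log10 p of 6.27. It was the weakest of the 9 by −log10 p and stood alone, 3840 bp before the next peak.

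The next 7 peaks were all labelled 3′-UTR. Peak 2 (54971483 to 54971589) was the longest, with 107 bp, and had 187 reads, 3.23 in replicate 1 and 3.34 for both together, with a −log10 p of 37.2. Peak 3 (54971647 to 54971677) had 71 reads and log2 folds of 3.87 and 3.95 in the same order, with a −log10 p of 13.3. Peak 4 (54971797 to 54971864) had 185 reads and log2 folds of 3.33 and 3.49, with a −log10 p of 35.8. Deep clusters and high folds did not go together among these: the cluster with the fewest reads of the 3 had the highest fold. Among all the 3′-UTR peaks, though, peak 7 had both the most reads and the highest fold.

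The other 3′-UTR peaks lay nearly end to end. Peak 5 (54972118 to 54972166) had 131 reads and log2 folds of 3.42 in replicate 1 and 3.47 for both together. Peak 6 (54972171 to 54972185) had 69 reads and folds of 3.73 and 3.48. Peak 7 (54972192 to 54972242) had 241 reads, the most of any LENG8 cluster, and log2 folds of 3.99 and 4.22. Its −log10 p of 57.2 was the second highest of all 866 peaks. Peak 8 (54972243 to 54972269) abutted it, with 69 reads and folds of 3.25 and 3.53.

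The last peak was labelled coding again. Peak 9 (54972509 to 54972529) began 239 bp after the last 3′-UTR peak and had 42 reads, the fewest of the clusters over a peak. Its log2 fold was the highest of LENG8 in replicate 1, with 4.77, and for both replicates together, with 4.89, and its −log10 p was 13.5. Among all 866 peaks that fold ranked 84.

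**Figure D3:**
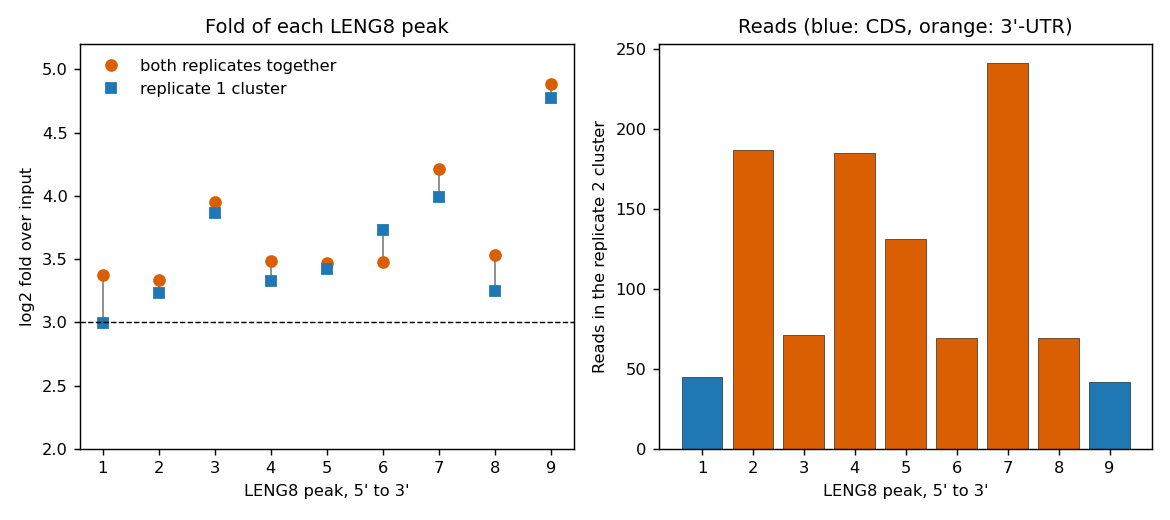
The 9 LENG8 peaks in order from 5′ to 3′, with the log2 fold over input of the replicate 1 cluster and of both replicates together (left; dashed line, 3) and the reads of the overlapping replicate 2 cluster (right; blue, coding; orange, 3′-UTR). The joint fold is above that of replicate 1 at 8 peaks and below it at peak 6, and the coding peaks at both ends have the fewest reads, 45 and 42.

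The fold for both replicates together was above the replicate 1 fold at 8 of the 9 peaks, with differences from −0.25 to 0.37 and a median of 0.11 on the log2 scale. Over all 866 peaks it was above at 314 (36.3%), with a median difference of −0.17. The deposited list gives 1 fold and 1 p per peak, so no error between replicates can be set on these values. At 5 LENG8 peaks the −log10 p of the list was the same as that of the replicate 1 cluster, although the fold differed. The p of the list therefore need not be a value for both replicates together. In 4 cases the peak had exactly the interval of a replicate 1 cluster and in 5 that of a replicate 2 cluster. Outside those 4, the joint fold and the replicate 1 fold cover unlike intervals, so their difference also holds the change of interval. Where several replicate 1 clusters overlapped a peak, the one with the most shared bases was used.

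LENG8 peaks had modest folds and low p-values beside the rest of the list. Their median log2 fold was 3.49 against 3.80 over all 866 peaks, while their median −log10 p was 14.6 against 5.54. By −log10 p, 8 of the 9 stood among the first 100 peaks. They were 15 to 107 bp long, 399 bp in all, against a median of 60 bp over all peaks. Neither trait was particular to LENG8 among entries with at least 8 peaks. The median −log10 p was 20.4 in HNRNPA2B1, 15.5 in ACTB and 12.8 in SRRM2, and 4.45 to 8.11 in the rest. The median log2 fold was 3.30 in SRRM2, 3.45 in TOP3B and 3.48 in HNRNPA1 and ENSG00000258344, and 3.56 to 4.83 in the rest. The −log10 p also depends on depth.

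**Figure D4:**
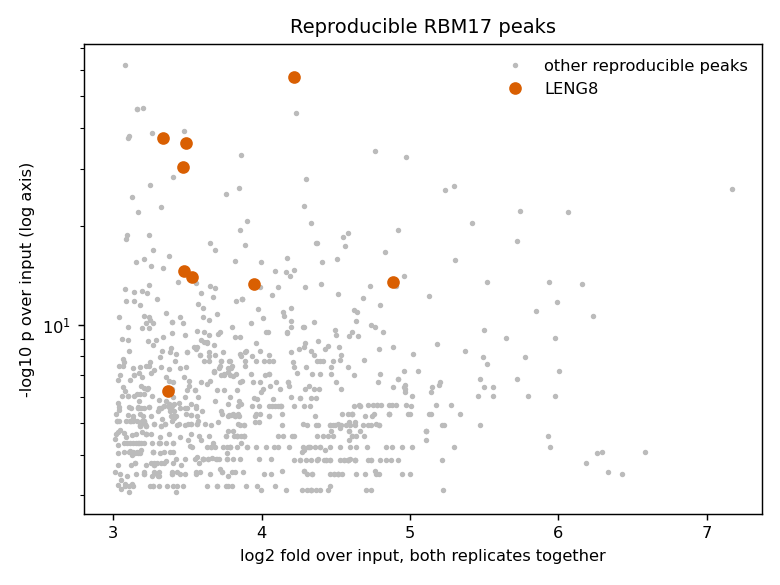
All 866 reproducible RBM17 peaks by log2 fold over input for both replicates together (x axis) and −log10 p over input (y axis, log scale), with the 9 LENG8 peaks in orange. LENG8 peaks lie toward the left by fold, between 3.34 and 4.89, and 8 of them lie high by −log10 p, at 13.3 or more.

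Most LENG8 peaks carried a label that was rare in the list. Peak 9, labelled coding, lay 3′ of these 3′-UTR peaks, so their label need not mean the 3′-UTR of LENG8-201. It may be that of the transcripts that keep intron 15. It may also be that of LENG8-201 itself, because LENG8-203 has coding sequence within it, at 54461226 to 54461451 on hg38. Neither was tested. Of the 866 peaks, 31 (3.58%) were labelled 3′-UTR, in 19 genes, and 7 of the 31 were in LENG8 (22.6%, interval 9.59 to 41.1). TOP3B came next with 3. Among the 11 other gene entries with at least 8 peaks, TOP3B was the one with any 3′-UTR peak. The coding label was common in the list, with 180 peaks, 2 of them in LENG8. The choice of LENG8 by its peak count raises its share of any label it carries, and these shares have no test.

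The 3′-UTR peaks filled a short run. It extended from 54971483 to 54972269, 787 bp or 14.6% of the span, with 348 bp inside peaks. In replicate 2, 9 clusters with 1117 reads overlapped it, 43.0% of the LENG8 reads. In replicate 1, 9 clusters there had log2 folds of 2.07 to 3.99 with a median of 3.41, and 8 were past the threshold. The other 19 replicate 1 clusters had a median of 2.46, and 4 were past it. The peaks define this run, so the difference in fold follows from how it was drawn.

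Just upstream lay a stretch with clear signal and no peak. From 54969981 to 54971478, 12 replicate 1 clusters had log2 folds of 1.65 to 2.81 and −log10 p of 5.56 to 20.9. In replicate 2 this stretch held 13 clusters of 34 to 144 reads, 931 reads in all, or 35.9% of the LENG8 reads. All 12 lay below a log2 fold of 3. A further strong cluster without a peak lay between peaks 8 and 9, at 54972304 to 54972397 in replicate 1, with a log2 fold of 2.81, a −log10 p of 37.3 and 188 reads in its replicate 2 partner.

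The reads of replicate 2 overlapped between clusters with and without a peak. The 9 clusters over a peak held 1040 of the 2596 reads (40.1%, interval 38.2 to 42.0) and 432 of the 1361 bp (31.7%). Their median was 71 reads against 67 in the other clusters, and the ranges overlapped, with 42 as the lowest over a peak and 188 as the highest elsewhere. The mean was 116 reads against 74.1. Per base, the clusters over a peak were denser, with a median of 2.56 reads per bp (1.5 to 4.73) against 1.68 (1.08 to 5.14) in the others. Of the 28 replicate 1 clusters, those that overlapped a peak had log2 folds of 2.997 or more and those that overlapped a replicate 2 cluster but no peak had 2.81 or less, a division that the list of peaks itself draws.

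Genes of like depth had fewer peaks, but LENG8 was chosen for its number of peaks, so nothing is read from this difference. The 7 other gene entries with between 2092 and 2938 reads had 0 to 5 peaks each, and 4 of the 7 had none. Those 4 were PRAME, a cancer-testis antigen, over 9792 bp, MAT2A, a methionine adenosyltransferase, over 3986 bp, and 2 short entries over 105 and 126 bp, against 5374 bp for LENG8. HNRNPH1, an hnRNP splicing regulator, had 5, GS1-600G8.3 had 3 and IARS1, the cytosolic isoleucyl-tRNA synthetase, had 1. Over all 10872 gene entries, 4.06% had a peak. By number of peaks LENG8 shared rank 2 with SRRM2 and ACTB, behind HNRNPA2B1 with 11. The 3 entries most like it, with a peak count within 1 of its own and the closest reads, were SRRM2, a scaffold of nuclear speckles, with 9 peaks and 1686 reads, and the overlapping entries ENSG00000258344 and HNRNPA1, with 1506 and 1227 reads, which share the same 8 peaks. SRRM2 had 40 replicate 2 clusters, and 5 of its 9 peaks were coding and none 3′-UTR.

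**Figure D5:**
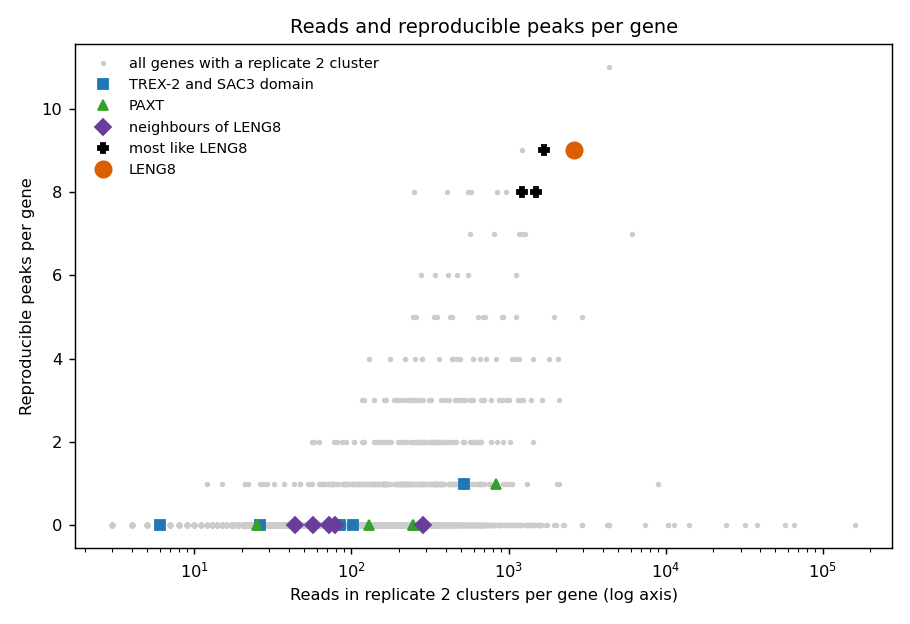
Reads in replicate 2 clusters (x axis, log scale) and reproducible peaks (y axis) for the 10872 gene entries, with LENG8, the 3 entries most like it and the members of 3 gene lists marked. LENG8 has 2596 reads and 9 peaks, and no neighbour of it has a peak.

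Transcripts of proteins related to LENG8 had 1 peak or none, as did most gene entries, so these short lists set no group apart. Of 7 genes of the TREX-2 complex and the SAC3 family, 6 had a replicate 2 cluster and 1 had a peak, against 4.06% of all entries. That was MCM3AP, with 517 reads and 1 peak with a log2 fold of 4.19. PCID2 and SEM1, which bind the SAC3 fold in TREX-2, had 81 and 103 reads, ENY2 had 85, CETN3 had 26 and SAC3D1 had 6, all without a peak, and CETN2 had no cluster. PAXT is an adaptor that brings polyadenylated nuclear RNA to the exosome. Of its 6 genes listed here, all 6 had a cluster and 1 had a peak, against the same 4.06%. This was PABPN1, the nuclear poly(A) binding protein, with 835 reads and a log2 fold of 3.75, at an interval that the read-through entry BCL2L2-PABPN1 overlaps. ZFC3H1, its zinc finger scaffold, had 283 reads, the helicase MTREX 245, RBM26 246, RBM27 130 and ZC3H3 25, with no peak.

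The genes beside LENG8 had no peaks. Of 12 genes around it in the same chromosome band, 5 had a replicate 2 cluster and none had a peak. With 4.06% of all entries holding a peak, a count of 0 in so short a list says nothing about these genes. RPS9, a ribosomal protein of the small subunit, had 286 reads, MBOAT7, a lysophospholipid acyltransferase, 79, CNOT3, a subunit of the CCR4-NOT deadenylase, 57, and PRPF31, a factor of the U4/U6.U5 tri-snRNP, 44. LENG8-AS1, which is read from the opposite strand, had 6 clusters with 72 reads, and the nearest of them ended 7018 bp before the first LENG8 cluster. The 3 replicate 1 clusters counted at LENG8-AS1 had log2 folds of −0.23, −0.62 and −0.72, each with a −log10 p of 0. The count used for the gene lists held 2 of them, with a median log2 fold of −0.42. The enrichment over input seen along LENG8 was thus not seen at its antisense neighbour. LENG8 was chosen for peaks that need this enrichment, so nothing is read from the difference, which was not tested.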

How the data were processed

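RBM17 eCLIP was analysed in K562 cells (2 replicates, 1 size-matched input). The members and gene lists were chosen with earlier results of these data known. The titles number replicates 1 and 2 as 2 and 3. Per the labels, reads were trimmed with cutadapt and aligned with STAR, versions not given in the sources used here; positions (largest on chromosome 1, 249211903) exceed hg38 (248956422) and fit hg19. For replicate 1 clusters and for reproducible peaks the deposited values were a log2 fold and a −log10 p, both against the input. For replicate 2 the authors deposited the caller's p-value, with the gene and read number in the cluster name. Replicate 1 therefore has no reads here and replicate 2 no fold. Starts were converted to 1-based coordinates. Intervals were overlapped by strand (at least 1 bp) with bedtools 2.31.1, tested on simulated intervals; tables used Python 3.11.15, pandas 2.3.3, numpy 2.4.6 and scipy 1.17.1. Shares have 95% exact Clopper-Pearson intervals. Named genes were LENG8, the 3 entries with a peak count within 1 and the closest reads, and list members (TREX-2 and SAC3, PAXT, LENG8 neighbours, K562 and lymphoid markers) with a replicate 2 cluster; genes of like depth had 0.8 to 1.25 times its reads, and HNRNPH1, OGT, TOP3B, ACTB, HNRNPA2B1, MAT2A, PRAME, IARS1 and GS1-600G8.3 were named after their values were seen. Alternatives changed the fold and p thresholds, the overlap, the span and the replicate used. Transcripts and sequences came from GENCODE 44 on hg38. Peak sequences were not analysed here.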

Additional observations from a re-analysis of the deposited data

How the results depend on the processing

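Of 14 alternatives, 11 left the value near the one reported and 3 moved it. At a log2 fold of at least 4, the replicate 1 clusters of LENG8 past the threshold fell from 12 to 1, since 11 of those 12 had folds between 3 and 4, and its reproducible peaks fell from 9 to 2. With the same interval required in both replicates, the share of replicate 1 clusters with a partner fell from 85.7% to 0%. The peaks numbered 8 when abutting ones were merged, 8 without replicate 2, where peak 1 missed the fold, and 9 without replicate 1. All come from a list that needed both replicates, and the last count could not have differed, since every LENG8 replicate 2 cluster was below the caller p used. With 50% of the cluster required, 63.3% of the replicate 2 clusters had a partner, against 76.7%. No paired analysis was possible because no comparison between groups was made. Depth limits these values in 2 ways: replicate 1 and the input have no read numbers here, and replicate 2 has no fold over input.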
